A study of Homo sapiens with 4 samples.

Results

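The serpins are a family of proteins that share one fold, and the probes described here are all those on the array whose gene symbol is SERPIN followed by a clade letter from A to I and digits. There are 38 such probes, for 35 genes, among 24460 gene probes. They were measured in 3 gemcitabine-resistant clones of Panc1 and in the parental Panc1 line, which derives from a human pancreatic ductal carcinoma, with 1 array each. The clones GR1, GR3 and GR4 were isolated by limiting dilution from parental cells that had met gemcitabine, a nucleoside analogue that blocks DNA synthesis, at 2 ng/ml first and 30 ng/ml last over 2 months. The parental line, labelled Panc1-Pt, had no gemcitabine. All 4 cultures grew in medium with 10% serum. The treatment text in the labels numbers the clones GR1, GR2 and GR3, while the titles and design text name GR1, GR3 and GR4, which were followed. Each clone is the progeny of 1 cell of a single selection, so a p-value here reflects how much these clones vary and nothing wider, and whether the drug was present at harvest is not given in the sources used here.

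Most serpins are suicide inhibitors of serine proteases: the protease cuts an exposed loop, the loop inserts into the body of the serpin, and the protease is trapped and distorted on it. Several members have turned to other tasks, such as carrying hormones or folding collagen. In pancreatic and other carcinomas the family is known for its control of plasminogen activation, of immune-cell granule proteases and of lysosomal proteases that leak into the cytosol.

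Signals are given as log2 of the background-subtracted and quantile-normalized intensity, on a scale whose floor is 0.61. Of the 24460 gene probes, between 22379 and 22926 lay above the limit of the blank spots (their mean plus 2 SD) on an array. The number of arrays limits the precision, and the parental line has no spread of its own. Of the markers, 6 of 8 listed for a pancreatic ductal carcinoma line were measured, and all 6 were above the limit on all 4 arrays, among them KRT7, KRT18, KRT19 and EPCAM. Of the 4 hepatocyte markers measured, ALB was above the limit on no array, but 2 were above it on all 4. CPA1, the only 1 of 4 listed acinar markers that was measured, was above it on no array. Being above the limit separates cell types poorly on these arrays, since 4 of 4 fibroblast, 3 of 3 endothelial and 2 of 4 measured leukocyte markers were above it on all 4 as well. RNA of a whole culture cannot separate a change in the share of expressing cells from a change per cell.

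The comparison asked how serpin transcripts of the resistant clones differ from those of the parental line. Of the 38 probes, 32 could be tested. SERPINB5 alone passed limma's threshold, an adjusted p under 0.05, and was higher in the clones. SERPINB5 and SERPINB2 were at least 2-fold higher in all 3 clones, and no serpin probe was at least 2-fold lower in all 3. SERPINB3 was the only member whose clones lay at least 4-fold apart.

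The 1 call among 32 tested serpin probes (3.12%) stands beside 3.69% of all 22796 tested probes (1.92% higher and 1.77% lower), and the 2 probes at least 2-fold higher in all 3 clones (6.25% of the 32) beside 6.65% of all tested probes (3.33% higher and 3.32% lower). The share called is near the background and is not a result about the family. Of the 841 calls over all probes 438 were higher in the clones, against 854 of 1277 with median scaling and 1877 of 2668 in the authors' deposited table. The median log2 difference, clones minus parental, was −0.08 over the 32 serpin probes and −0.02 over all tested probes. The median size of the difference, without sign, was 0.35 over the serpin probes and 0.32 over all tested probes. The clones lay entirely above the parental signal for 11 serpin probes (34.4%, against 34.1% of all tested probes) and entirely below it for 11 (34.4%, against 37.6%). At an unadjusted p under 0.05, 6 serpin probes passed, 4 higher (SERPINB5, SERPINB2, SERPINA1 and SERPINB8) and 2 lower (SERPINA3 and SERPINB7), where 30.1% of all tested probes passed.

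**Figure D1:**
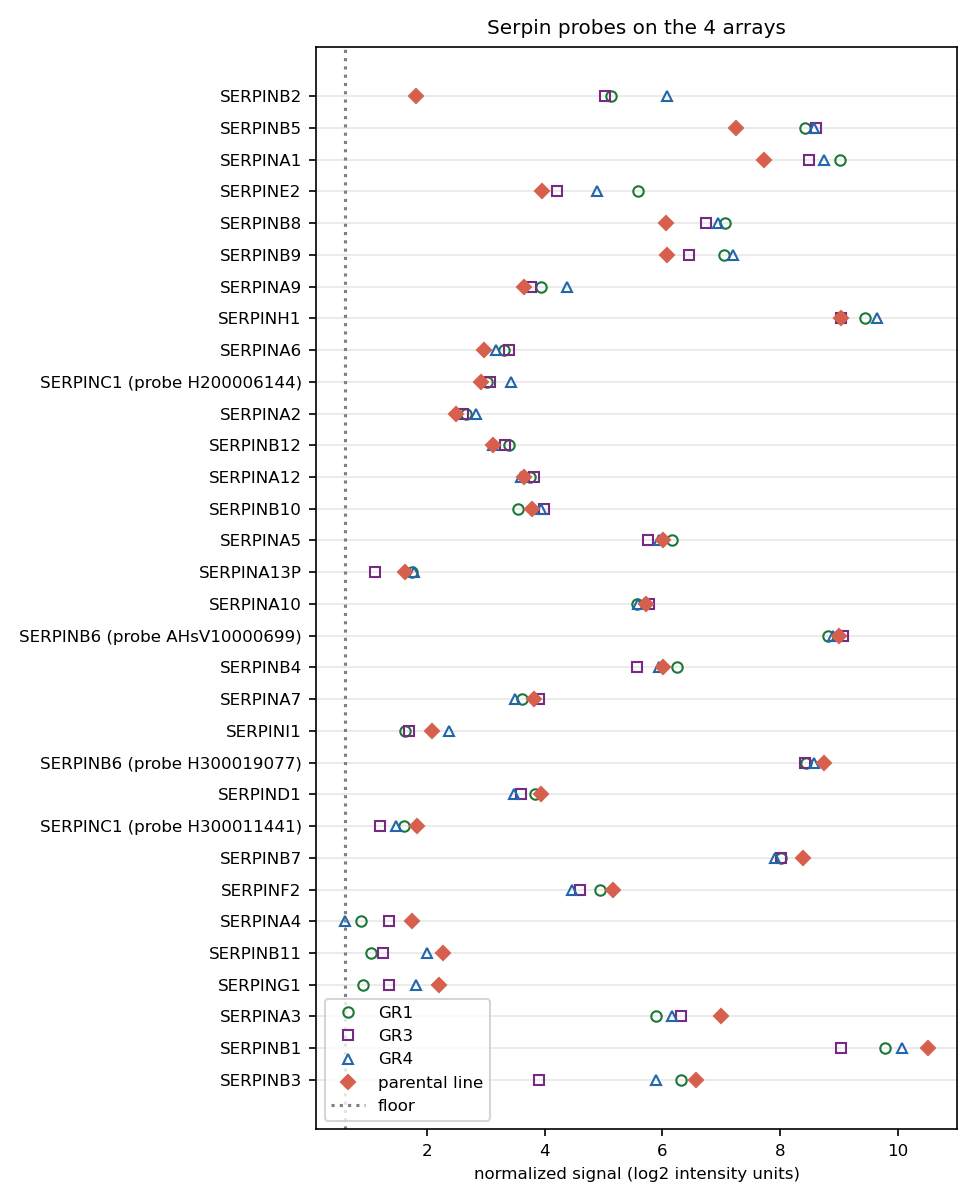
Normalized log2 signal of each of the 32 tested serpin probes on the GR1, GR3, GR4 and parental arrays, ordered by the difference between clones and parental line; the dotted line is the floor. SERPINB2 and SERPINB5 stand clear of the parental signal on all 3 clones, and SERPINB3 is low on GR3.

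SERPINB5 encodes maspin, a clade B serpin that does not act as a protease inhibitor and is known as a tumour suppressor in mammary epithelium. Its log2 signal was 8.42 on GR1, 8.62 on GR3 and 8.58 on GR4, against 7.25 on the parental array. The 3 clones lie within 0.20 of each other and do not overlap the parental value. The transcript rose 2.45-fold (log2 difference 1.29 ± 0.14, SE of the fit; limma adjusted p = 0.0459). The difference lay between 1.06 and 1.52 over the 11 alternatives. Normexp, a model-based background correction, was among them in 2 forms, after blank subtraction or by the column headed as background. Both forms add an offset of 50 intensity units to every signal, which makes log2 differences between dim signals smaller. The call was lost with any 1 clone left out (adjusted p from 0.0758 to 0.217), with normexp by the background column (0.0890), without a filter on dim probes (0.0547) and with a floor 4 times as high (0.0554).

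SERPINB2 encodes PAI-2, an inhibitor of urokinase and tissue plasminogen activator that is largely retained inside cells. Its log2 signal was 5.12 on GR1, 5.02 on GR3 and 6.08 on GR4, against 1.82 on the parental array. GR4 was the highest of the clones, and all 3 were far above the parental signal, which was above the blank limit but close to the floor. The difference was 3.59 ± 0.51, or 12-fold, and did not pass (limma adjusted p = 0.0542). It passed with median scaling (adjusted p = 0.0466), in the authors' deposited table (0.0150) and among probes above the limit on all 4 arrays (0.0132). With a floor 4 times as high the difference was 2.80 and did not pass. It also did not pass with no normalization, without a filter on dim probes or with any 1 clone left out. The size was smaller in both normexp forms, which add 50 units to each signal. The log2 difference was 0.79 with normexp after blank subtraction and 0.37 with normexp by the background column. The share of this due to the added offset, rather than to the background removed, was not tested.

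The promoters of both genes are shown because these probes had the 2 largest differences above 0 among the 32 tested serpin probes. They are the 250 bases before the RefSeq start, from the plus strand of GRCh38.p14, at chr18:63887455-63887704 for SERPINB2 and chr18:63476708-63476957 for SERPINB5. Capitals mark matches to TGANTCA, the AP-1 motif, and to TATAAA, the TATA box.
SERPINB2: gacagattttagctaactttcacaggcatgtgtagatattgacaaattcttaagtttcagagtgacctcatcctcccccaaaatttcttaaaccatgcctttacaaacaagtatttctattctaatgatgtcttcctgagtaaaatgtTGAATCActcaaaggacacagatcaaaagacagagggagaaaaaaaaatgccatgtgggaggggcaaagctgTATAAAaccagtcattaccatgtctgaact
SERPINB5: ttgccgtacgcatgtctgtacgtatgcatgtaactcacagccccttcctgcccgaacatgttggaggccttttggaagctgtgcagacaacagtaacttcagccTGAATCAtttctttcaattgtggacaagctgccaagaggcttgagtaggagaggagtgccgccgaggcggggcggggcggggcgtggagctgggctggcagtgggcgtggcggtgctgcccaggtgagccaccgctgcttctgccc
Counting back from the RefSeq start, each window holds 1 TGAATCA, whose first base is at −102 in SERPINB2 and at −146 in SERPINB5, and that of SERPINB2 also has a TATAAA at −30. On either strand, TGANTCA occurs in 6.57% and TATAAA in 10.7% of the 35116 promoter windows of this length. Among the 41 windows listed for 27 serpin genes, several of which belong to 1 gene and can overlap, 9 hold TGANTCA and 8 hold TATAAA. The CCAAT box (CCAAT, in 32% of all windows) and the core of the interferon-stimulated response element (in 3.02%) were searched too and match neither window. A match is a description of the letters, and binding was not measured.

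**Figure D2:**
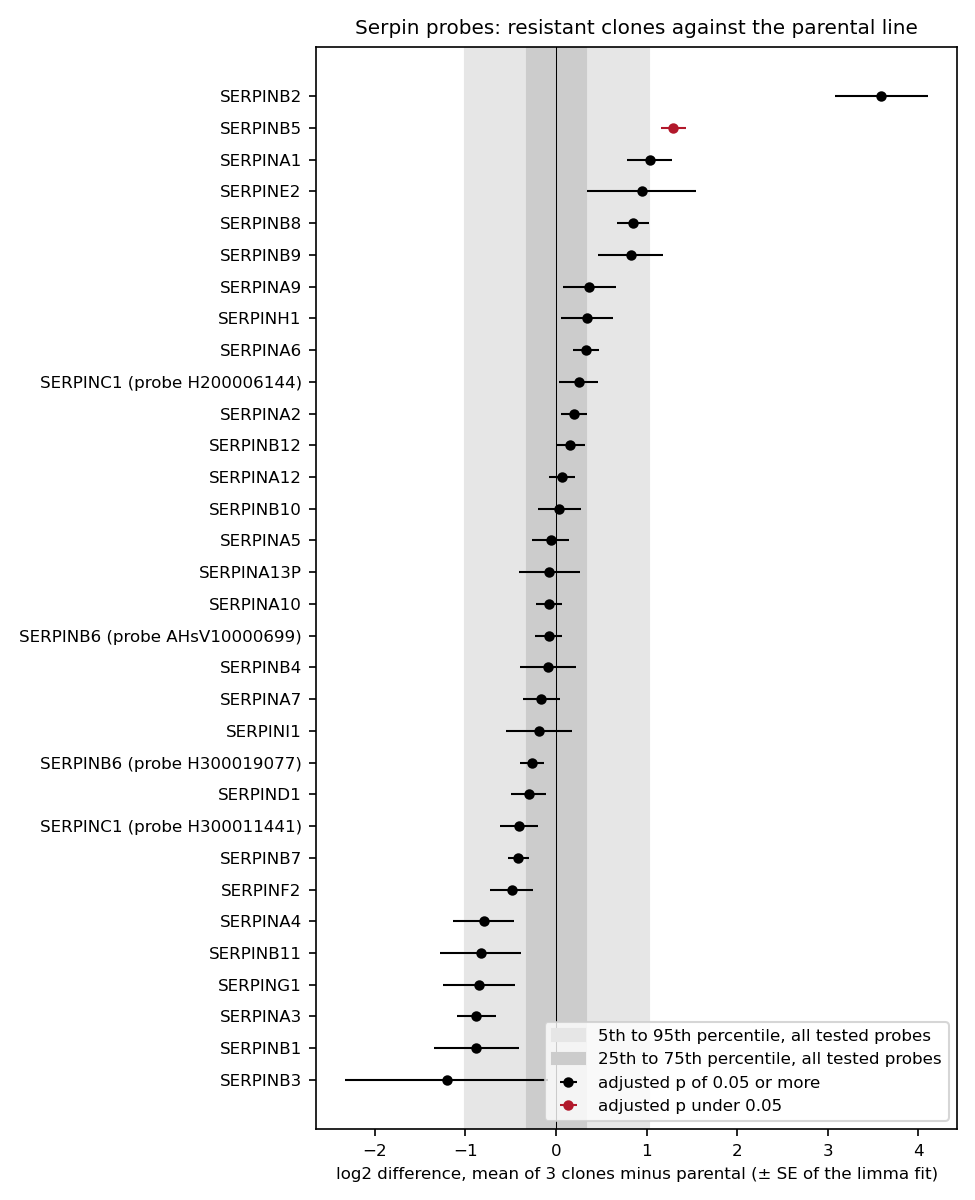
Mean log2 difference of the 3 clones from the parental array, with the SE of the limma fit, for the 32 tested serpin probes; grey bands hold the middle 90% and 50% of all tested probes (5th to 95th and 25th to 75th percentile). SERPINB5, in red, is the only probe past the threshold, and SERPINB2, with a difference of 3.59, and SERPINB3, with −1.20, are the highest and the lowest.

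The inhibitors of plasminogen activators and plasmin did not share a direction. SERPINE2, protease nexin-1, which inhibits thrombin and urokinase, had log2 signals of 5.58 on GR1, 4.21 on GR3 and 4.88 on GR4, against 3.94 on the parental array. GR3 was close to the parental line and GR1 far above it. The difference was 0.95 ± 0.60 (adjusted p = 0.370), and it was 0.60 without GR1 and 0.08 with normexp by the background column. SERPINF2, alpha-2-antiplasmin, the plasma inhibitor of plasmin, had 4.94, 4.59 and 4.47 on GR1, GR3 and GR4, against 5.16 on the parental array. All 3 clones were below the parental line by a small margin (−0.49 ± 0.24, adjusted p = 0.265), which was −0.18 with normexp after blank subtraction. SERPINA5, the protein C inhibitor, which also acts on urokinase, differed by −0.06 ± 0.20, with parental signal inside the range of the clones, and its sign turned with median scaling (0.018).

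Among the inhibitors of leukocyte and inflammatory proteases, no probe passed limma's threshold. SERPINA1, alpha-1 antitrypsin, the plasma inhibitor of neutrophil elastase, had log2 signals of 9.02 on GR1, 8.49 on GR3 and 8.76 on GR4, against 7.72 on the parental array. All 3 clones were above it, GR3 by less than 2-fold, and the difference of 1.03 ± 0.25 did not pass (adjusted p = 0.0991). With normexp by the background column it was 0.45, and in the authors' deposited table it was 1.25 and passed (adjusted p = 0.0375). SERPINA3, alpha-1 antichymotrypsin, an acute-phase inhibitor of cathepsin G, had 5.89, 6.31 and 6.16 on GR1, GR3 and GR4, against 7.0 on the parental array. Here all 3 clones were below the parental line (−0.88 ± 0.21, adjusted p = 0.0991), and the difference was −0.54 with normexp by the background column. The difference SERPINA1 minus SERPINA3 itself was not tested.

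SERPINB1, an intracellular inhibitor of neutrophil elastase and related granule proteases, had log2 signals of 9.79 on GR1, 9.05 on GR3 and 10.08 on GR4, against 10.52 on the parental array. GR3 lay lowest, and the clones did not reach the parental value (−0.88 ± 0.47, adjusted p = 0.302). Without GR3 the difference was −0.58. SERPINB9, the inhibitor of granzyme B that protects cells from cytotoxic granules, had 7.06, 6.44 and 7.20 on GR1, GR3 and GR4, against 6.07 on the parental array. All 3 were above the parental line, GR3 least (0.83 ± 0.36, adjusted p = 0.231), and normexp by the background column gave 0.42. SERPINB6, an intracellular inhibitor of trypsin-like proteases and cathepsin G, has 2 probes, with differences of −0.08 ± 0.15 and −0.26 ± 0.13. With median scaling these were 0.18 and 0.0023, so no direction can be given for SERPINB6.

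SERPINB8, an intracellular inhibitor of furin, had log2 signals of 7.07 on GR1, 6.74 on GR3 and 6.95 on GR4, against 6.07 on the parental array. The clones did not overlap the parental line (0.85 ± 0.18, adjusted p = 0.0820), and the probe passed in the authors' deposited table (adjusted p = 0.0415) and among probes above the limit on all 4 arrays (0.0495). Its difference was 0.35 with normexp by the background column and 0.54 with normexp after blank subtraction. SERPINB7, known as megsin and mutated in a keratoderma of the palms and soles, had 8.01, 8.03 and 7.91 on GR1, GR3 and GR4, against 8.40 on the parental array. The clones were nearly level and all below the parental line (−0.41 ± 0.12, adjusted p = 0.122). Median scaling gave −0.17 and unnormalized signals −0.14, and with normexp after blank subtraction it was −0.35 and passed (adjusted p = 0.0452).

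SERPINB3 encodes the squamous cell carcinoma antigen SCCA1, an intracellular inhibitor of cathepsins L, K and S, and SERPINB4 encodes its close relative SCCA2, which inhibits cathepsin G and chymase. The SERPINB3 probe had log2 signals of 6.32 on GR1, 3.89 on GR3 and 5.90 on GR4, against 6.57 on the parental array. GR3 stood apart, 5.39-fold below GR1. Against the parental line, GR1 differed by −0.25, GR4 by −0.68 and GR3 by −2.68. The difference of the 3 clones from the parental line was −1.20 ± 1.12 (adjusted p = 0.528), and −0.47 without GR3. SERPINB4 had 6.25, 5.57 and 5.94 on GR1, GR3 and GR4, against 6.01 on the parental array. GR3 was again the lowest clone, by 0.68 below GR1, and the parental signal lay inside the clones' range (−0.09 ± 0.31, adjusted p = 0.880).

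With 1 array per clone, clones cannot be tested against each other. SERPINB3 is 1 of 37 serpin probes above the limit on a clone (2.70%), where 0.485% of all such probes were at least 4-fold apart between clones. At least 2-fold apart were 4 serpin probes (10.8%), namely SERPINB3, SERPINE2, SERPINB2 and SERPINB1, against 4.26% of all such probes. The difference of SERPINB3 between clones was known when the serpins were chosen, so neither share is a result about the family. The median range between clones was 0.40 for the serpin probes and 0.30 for all. GR3 was the lowest clone for SERPINB3, SERPINE2, SERPINB2 and SERPINB1, for SERPINB2 by little (5.02, against 5.12 on GR1). With normexp by the background column, GR3 was above GR1 for SERPINB2 (6.39 against 6.28). Over the 32 tested serpin probes, GR1 was the highest clone for 10, GR3 for 10 and GR4 for 12. These counts do not show how often each clone was the lowest, and were not set beside all tested probes. The range of SERPINB3 between clones stayed at 2.39 under median scaling and 2.48 unnormalized, but was 0.98 and 0.62 with normexp after blank subtraction and by the background column.

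The promoters of SERPINB3 and SERPINB4 are shown because the genes are neighbours of very similar sequence and their probes differ in GR3. They are the 250 bases before each RefSeq start, on the minus strand of GRCh38.p14, at chr18:63661894-63662143 for SERPINB3 and chr18:63644257-63644506 for SERPINB4. Capitals mark the bases that differ.
SERPINB3: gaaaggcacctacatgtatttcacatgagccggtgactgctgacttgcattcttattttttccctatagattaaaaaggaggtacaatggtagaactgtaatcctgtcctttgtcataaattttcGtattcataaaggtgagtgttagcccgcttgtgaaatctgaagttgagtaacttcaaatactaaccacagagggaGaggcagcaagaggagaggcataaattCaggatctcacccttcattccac
SERPINB4: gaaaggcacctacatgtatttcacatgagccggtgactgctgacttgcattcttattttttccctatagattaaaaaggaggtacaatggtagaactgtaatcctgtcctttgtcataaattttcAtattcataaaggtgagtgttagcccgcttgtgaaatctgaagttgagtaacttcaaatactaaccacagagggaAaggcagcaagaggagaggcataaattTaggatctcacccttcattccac
The windows are identical at 247 of 250 positions (98.8%). With SERPINB3 first and positions counted from 1 at the 5′ end, the differences are G126A, G201A and C228T. None of the 4 motifs searched in the other promoters occurs in these windows. Hybridization of 1 gene's transcript to the other's probe was not tested.

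SERPINB3 and SERPINB4 belong to a row of 10 clade B genes on chromosome 18, in the order SERPINB5, SERPINB12, SERPINB13, SERPINB4, SERPINB3, SERPINB11, SERPINB7, SERPINB2, SERPINB10 and SERPINB8. The neighbours did not move together. SERPINB5 at one end had a log2 difference of 1.29, SERPINB8 at the other end 0.85 and SERPINB2 3.59. Between them, SERPINB12, SERPINB4 and SERPINB10 had 0.16, −0.09 and 0.04, and SERPINB3, SERPINB11 and SERPINB7 had −1.20, −0.83 and −0.41. The other clade B genes lie on chromosome 6, where SERPINB1, SERPINB9 and SERPINB6 follow each other with differences of −0.88, 0.83 and, for the 2 probes of SERPINB6, −0.08 and −0.26.

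**Figure D3:**
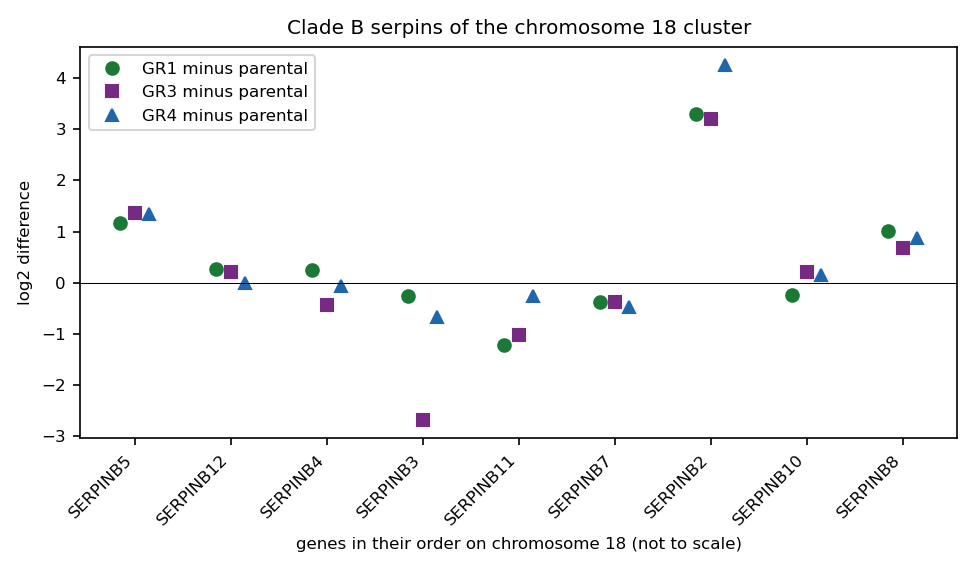
Log2 difference of each clone from the parental array for the 9 tested probes of the chromosome 18 row of clade B serpins, in gene order and not to scale. SERPINB5, SERPINB2, SERPINB8 and, by less, SERPINB12 are above 0 in all 3 clones, and SERPINB3 in GR3 lies at −2.68.

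SERPINH1, also called HSP47, is a collagen chaperone of the endoplasmic reticulum rather than a protease inhibitor. Its log2 signal was 9.45 on GR1, 9.03 on GR3 and 9.65 on GR4, against 9.04 on the parental array. GR3 was level with the parental line, and GR1 and GR4 were above it. The difference was 0.34 ± 0.29 (adjusted p = 0.492) and turned to −0.34 with normexp by the background column. SERPING1, the C1 inhibitor of the complement and contact systems, which interferons are known to induce, had dim signals of 0.90, 1.35 and 1.81 on GR1, GR3 and GR4, against 2.20 on the parental array. All 3 clones were lower (−0.85 ± 0.40, adjusted p = 0.259), but the difference was −0.03 with normexp by the background column.

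Of the plasma serpins not described so far, none passed limma's threshold. The hormone carriers SERPINA6, which binds corticosteroids, and SERPINA7, which binds thyroxine, differed by 0.33 ± 0.14 and −0.16 ± 0.21. SERPIND1, heparin cofactor II, a thrombin inhibitor, differed by −0.30 ± 0.19, and SERPINA10, the inhibitor of factor X that depends on protein Z, by −0.08 ± 0.14. The 2 probes of SERPINC1, antithrombin, had opposite signs, 0.25 ± 0.22 and −0.41 ± 0.21, and neither passed. With normexp after blank subtraction SERPINA6 differed by 0.05 and SERPIND1 by −0.06, and with normexp by the background column the SERPINC1 probes differed by 0.01 and −0.01. SERPINA4, kallistatin, was dim, with 0.86 on GR1, 1.34 on GR3 and the floor on GR4, against 1.73 on the parental array (−0.79 ± 0.34, adjusted p = 0.221), a difference that was −0.04 with normexp after blank subtraction. SERPINA12, known as vaspin, SERPINA9 of germinal centre B cells, and the pseudogenes SERPINA2 and SERPINA13P differed by 0.07, 0.37, 0.20 and −0.07. SERPINI1, neuroserpin, an inhibitor of tissue plasminogen activator in the nervous system, was dim and differed by −0.18 ± 0.36, with GR4 above the parental line and GR1 and GR3 below it.

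The other 6 probes could not be tested, because they were above the limit neither on the parental array nor on all 3 clones. They are those of SERPINA11, SERPINB13, SERPINE3, SERPINF1 (pigment epithelium-derived factor) and SERPINI2, and 1 of the 2 probes of SERPINB11. SERPINE3 was above the limit on no array, and for the others their values on the clones were at or within 0.31 of the floor. SERPINB11 and SERPINA11 are also old symbols of other serpin loci, and the probes are assigned by symbol alone. The tested SERPINB11 probe had 1.04, 1.24 and 2.00 on GR1, GR3 and GR4, against 2.26 on the parental array (−0.83 ± 0.45, adjusted p = 0.306), and −0.03 with normexp by the background column. Of the 32 tested probes, 31 were above the limit on all 4 arrays. The 5 members with the highest mean signals are SERPINB1, SERPINH1, both SERPINB6 probes and SERPINA1, and a probe's signal does not rank its transcript against another's.

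The proteases and partners of the serpins were followed in 10 lists, with each gene represented by its brightest tested probe. Of 142 listed genes 131 were tested, and 1 passed as higher and 5 as lower, beside 4.06% of all 16592 tested genes (2.17% higher and 1.89% lower). At least 2-fold apart in all 3 clones were 3 higher and 12 lower, beside 3.66% and 3.6% of all tested genes. At a limma unadjusted p under 0.05, 46 of the 131 passed, beside 30.1% of all tested probes. The lists were chosen with earlier results of these data known, so none of these counts is a result about the lists. In the list of plasminogen activation and fibrinolysis, which holds the urokinase that SERPINB2 and SERPINE2 inhibit, 1 of 11 tested genes passed as higher and 0 as lower. At a limma unadjusted p under 0.05, 7 of the 11 passed, some higher and some lower. The gene past the adjusted threshold was THBD, and the median log2 difference of the list was 0.01. THBD, thrombomodulin, had log2 signals of 6.76, 6.59 and 6.88 on GR1, GR3 and GR4, against 5.18 on the parental array, and rose by 1.56 ± 0.16 (adjusted p = 0.0456). Over 4 alternatives for the background and the normalization, its difference lay between 0.80 and 1.64 and passed in 2. PLAU, urokinase, had 12.52, 11.47 and 12.30 on GR1, GR3 and GR4, against 10.20 on the parental array. All 3 clones were at least 2-fold above it, GR3 the least, and the difference of 1.89 ± 0.49 did not pass (adjusted p = 0.107). PLAT, tissue plasminogen activator, went the other way (−0.81 ± 0.17, limma adjusted p = 0.0854) and did not pass either.

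Among the lysosomal cathepsins, some of which SERPINB3 inhibits, 1 of 14 tested genes passed as lower and 0 as higher. At a limma unadjusted p under 0.05, 8 of the 14 passed, all of them lower, beside 30.1% of all tested probes. The median log2 difference was −0.99, beside −0.02 over all tested genes. CTSH fell: its signals were 8.39, 8.69 and 8.30 on GR1, GR3 and GR4, against 10.32 on the parental array (−1.86 ± 0.20, adjusted p = 0.0466). CTSS, cathepsin S, had 7.05, 6.82 and 7.46 on GR1, GR3 and GR4, against 9.34 on the parental array (−2.23 ± 0.30, adjusted p = 0.0518). CTSK and CTSF were also at least 2-fold lower in all 3 clones, with differences of −1.58 and −1.21, and did not pass. Over the same 4 alternatives CTSK lay between −1.60 and −0.28 and CTSF between −1.18 and −0.25, and each passed in 1, while CTSH passed in 2 and CTSS in 3. The count of called cathepsins was 6 with normexp after blank subtraction, 2 with median scaling and 0 with no normalization. The median of the list was −0.75 with median scaling and −0.50 with normexp by the background column.

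The complement list, which holds proteases that SERPING1 controls and also other genes such as CFB, had 1 of 11 tested genes lower and 0 higher past the threshold. At a limma unadjusted p under 0.05, 5 of the 11 passed, most of them lower, beside 30.1% of all tested probes. The median log2 difference of the list was −0.71. C1R had log2 signals of 4.33, 4.41 and 4.61 on GR1, GR3 and GR4, against 6.37 on the parental array, and fell by 1.92 ± 0.16 on the log2 scale (adjusted p = 0.0442). CFB and C1RL were at least 2-fold lower in all 3 clones, with differences of −2.0 and −1.36 (adjusted p = 0.0541 and 0.0533). Over the 4 alternatives C1R lay between −1.83 and −0.64 and passed in 3, and C1RL lay between −1.26 and −0.44 and passed in 2. The count of called genes of this list was 3 with normexp after blank subtraction and 2 with median scaling. The list's median was −0.03 with normexp by the background column. In collagen folding, the process that SERPINH1 serves, PLOD2, a lysyl hydroxylase, fell by 1.56 ± 0.11 (adjusted p = 0.0442), and P4HA1, a prolyl hydroxylase subunit, had −1.56 ± 0.28 (adjusted p = 0.0680). PLOD2 lay between −1.41 and −0.80 over the 4 alternatives and passed in 2. The median of the 16 tested genes was −0.09, but 0.02 with median scaling and 0.06 with no normalization, so the list has no settled direction.

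Of 15 tested epithelial serine proteases 1 fell, TMPRSS3, a membrane protease, with signals of 5.88, 6.46 and 5.85 on GR1, GR3 and GR4, against 9.06 on the parental array (−2.99 ± 0.31, adjusted p = 0.0456). HTRA1, a secreted serine protease, lay more than 2-fold below the parental line in each clone (−1.83 ± 0.28, adjusted p = 0.0580), and lay between −1.76 and −0.70 over the 4 alternatives, passing in 1. Among 20 tested protease inhibitors outside the serpin family 1 fell, WFDC2, a secreted whey acidic protein family member, with signals of 8.01, 7.95 and 7.86 on GR1, GR3 and GR4, against 10.86 on the parental array (−2.92 ± 0.12, adjusted p = 0.0442). None of the 14 kallikreins, 13 coagulation genes, 10 leukocyte granule proteases or 7 endocytic receptors tested passed limma's threshold, and 0, 4, 1 and 2 of them had an unadjusted p under 0.05, beside 30.1% of all tested probes. Normexp after blank subtraction called 1 kallikrein. Their median log2 differences were −0.18, −0.21, −0.22 and 0.16, but 0.0026, 0.0015, −0.048 and 0.0011 with normexp by the background column, which turns the sign for the kallikreins and the coagulation genes. LRP8, an endocytic receptor, was at least 2-fold higher in all 3 clones (1.24 ± 0.21, adjusted p = 0.0644), with a range over the 4 alternatives from 0.51 to 1.35.

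**Figure D4:**
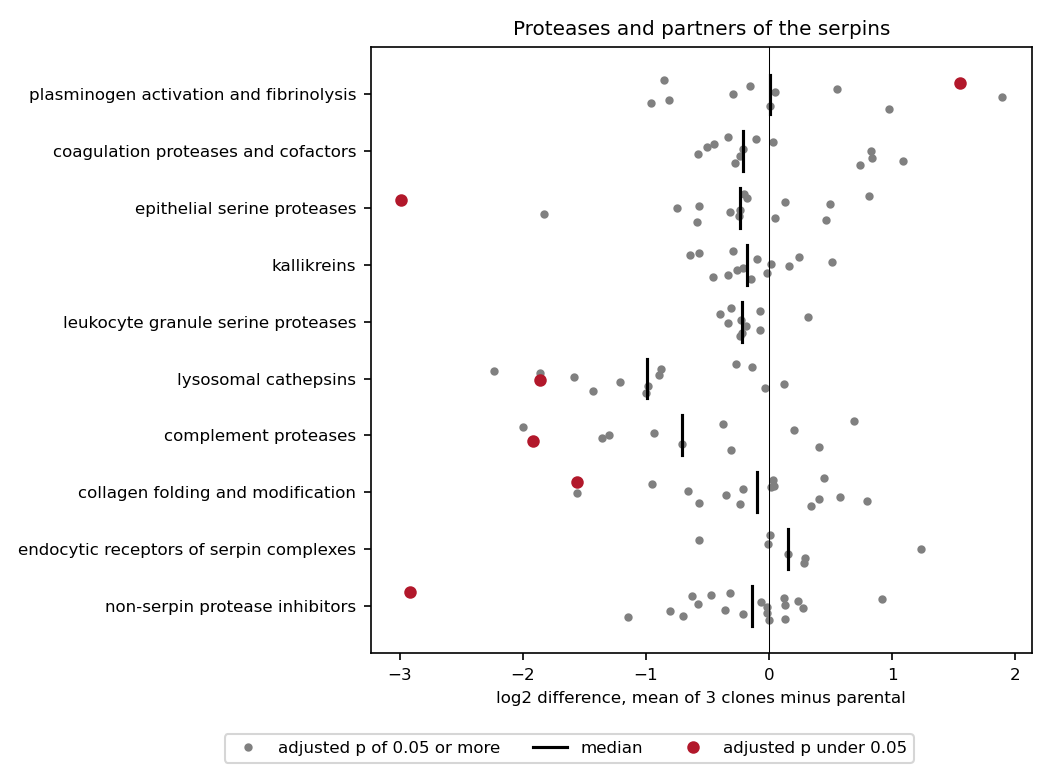
Log2 difference of the clones from the parental array for 131 tested genes in 10 lists of proteases and serpin partners; each point is a gene, red points passed limma's threshold and the black bar is the list's median. The lysosomal cathepsins have the lowest median, −0.99, and THBD is the only red point above 0.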

How the data were processed

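Messenger RNA was measured on Toray 3D-Gene arrays with the single dye Cy5, per the labels. The deposited scanner files give each spot's median intensity and a column headed as background, per the file headers, both not normalized. The authors' deposited value table holds intensity after subtraction of the blank-spot signal and scaling of each array to a common median of 25. Aligner and genome build are not given in the sources used here. From the spot intensity, the mean of the 2680 blank spots without the 5% at each end was subtracted. The column headed as background entered only an alternative, since it follows the spot's own signal (log correlation from 0.932 to 0.962 over gene probes). Signals were quantile normalized, values under 1.52 units were set to 1.52, and log2 was taken. Leaving out 11 faulty probes, 22796 probes were tested: those whose signal exceeded the limit, 2 SD over the mean of the blanks, in the parental line or in every clone.

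Clones and parental line were compared with limma 3.58.1 in R 4.3.3 (two-sided, 2 residual degrees of freedom, Benjamini-Hochberg over all tested probes), which assumes that the parental array varies like the clones. The script was tested on simulated data. Sizes were also counted at 2-fold in all 3 clones. Symbols came from the platform annotation (20236 probes with 1 symbol, 4224 with none), updated through RefSeq (GRCh38.p14), as were promoters. Members and lists were chosen with earlier results of these data known. Members were named in full if called, 2-fold apart in all 3 clones or 4-fold apart between clones, the 5 brightest by name, and the others by role. Genes of the lists were named if called or 2-fold apart in all 3 clones, at most 4 a list, and PLAT was added beside PLAU. Alternatives changed the background, the normalization, the filter, the floor, the prior variance and the clones included.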

Additional observations from a re-analysis of the deposited data

How the results depend on the processing

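The mean of the clones was higher for SERPINB5 and SERPINB2, and lower for SERPINB3, under all 11 alternatives that give a difference. For SERPINB3 this did not hold for each clone. With normexp by the background column its signal was 6.68 on GR1, against 6.65 on the parental array. Over the 32 tested serpin probes, 344 alternative values were computed, of which 312 kept their direction and side of the threshold, 6 lost a call (all for SERPINB5), 7 gained one and 19 changed sign. The limma count over all probes was 841, and 166 with normexp by the background column, 2699 with normexp after blank subtraction, 1277 with median scaling, 259 with no normalization, 2668 in the authors' deposited table, 2664 for probes above the limit on all 4 arrays, 1551 with an intensity trend and 0 with no filter (smallest adjusted p = 0.0507, with 7072 probes and 6 serpin probes at an unadjusted p under 0.05). With 1 clone left out limma called 0 probes (smallest adjusted p = 0.0755 without GR3), which leaves 1 residual degree of freedom, and 4573 to 7865 probes, of them 5 to 8 serpin probes, had an unadjusted p under 0.05. The serpin count of 1 became 0 with normexp by the background column, with no filter and with 4 times the floor, 2 with normexp after blank subtraction, with median scaling and with an intensity trend, 3 above the limit on all 4 arrays and 4 in the authors' deposited table. Serpin probes at least 2-fold apart in all 3 clones numbered 2, and 1 with normexp by the background column, 0 with normexp after blank subtraction, 5 at 1.5-fold, 1 at 3-fold and 2 to 3 with 1 clone left out. The count of 1 serpin probe 4-fold apart between clones was 0 with both normexp settings, 4 at 2-fold, 0 at 8-fold and 0 to 1 with 1 clone left out (0 without GR3). The serpin median of −0.08 was −0.017 and −0.016 with normexp by the background column and after blank subtraction, 0.010 with median scaling, 0.050 with no normalization, 0.017 in the authors' deposited table, 0 with no filter or 4 times the floor and −0.061 to −0.014 with 1 clone left out. The 6 related genes called were 3 with normexp by the background column and, in 2 alternatives chosen after seeing the data, 19 with normexp after blank subtraction and 2 with no normalization. Signs turned for SERPINA10 (0.022 with no normalization), SERPINA2 (−0.019) and SERPINH1 (−0.34) with normexp by the background column, SERPINA5 (0.033 there, 0.018 with median scaling, 0.058 with no normalization, 0.017 in the authors' deposited table, −0.16 to 0.038 with 1 clone left out), SERPINB4 (0.031 with no normalization, −0.25 to 0.091 with 1 clone left out), SERPINA13P (−0.19 to 0.14 with 1 clone left out), SERPINB10 (−0.043 without GR3, −0.021 without GR4) and the SERPINB6 probes (0.18 and 0.0023 with median scaling, 0.22 and 0.042 with no normalization, 0.18 and 0.0015 in the authors' deposited table). The cause of these changes was not tested. With 4 times the floor, 6 dim members were at the floor on all 4 arrays and gave no difference. No paired analysis was possible because the labels tie no clone to a parental sample and the parental line has 1 array.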
